A study of Mus musculus with 6 samples.

Results

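The 8 genes Irf1, Irf2, Irf3, Irf4, Irf5, Irf7, Irf8 and Irf9 of the interferon regulatory factor (IRF) family were followed in natural killer (NK) cells kept at low oxygen. They were taken by gene symbol from the 56953 Ensembl genes of the count files, each symbol matched 1 gene, and all 8 passed the filter on low counts that left 15591 genes for testing. The cells were primary spleen NK cells of wild-type C57BL/6 mice. The hypoxia group was grown for 7 days at 1% oxygen and the normoxia group for 7 days at 20% oxygen. Both groups received 1700 U/ml of recombinant human interleukin-2, a growth factor for NK cells, and 5% CO2, and each is made up of 3 libraries with biological replicate numbers 1 to 3. No label ties a replicate to its own mouse or culture. The p-values therefore reflect the spread among these libraries, which may be technical, and the age of the mice is not given in the sources used here.

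IRFs are transcription factors that share a DNA-binding domain and read the interferon-stimulated response element (ISRE), a repeated GAAA sequence in the promoters of interferon-induced genes. IRF3 and IRF7 are phosphorylated after sensing of foreign nucleic acid and switch on type I interferon genes, IRF9 joins STAT2 in the complex ISGF3 that carries the interferon signal to DNA, and IRF1 and IRF2 compete for the same sites as activator and antagonist. IRF4 and IRF8 act in blood cell lineages and bind DNA well only with partner factors, and IRF5 works downstream of Toll-like receptors. In mice, NK cells depend on IRF2 for maturation, and IRF8 is needed for their expansion in viral infection.

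The promoters of the members are shown first because several IRF genes are themselves interferon targets and because 5 of the 8 changed together in the comparison that follows. RefSeq windows (build GRCm38.p6, which is not the GRCm39 build named for the files) were found for all 8 genes, and the 250 bases upstream of the annotated start are printed 5′ to 3′ for Irf7 and Irf8, which were lower in hypoxia, and for Irf1 and Irf2, which were not called. Capitals mark matches to the ISRE core, GAAA repeated after a gap of 2 bases (GAAA, NN, GAAA), or to TTCNNNGAA, the GAS element of interferon gamma signalling. The Irf7 window is chr7:141266425-141266674, on the minus strand. The Irf8 window is chr8:120736108-120736357, the Irf1 window chr11:53769764-53770013 and the Irf2 window chr8:46739495-46739744, all on the plus strand. For Irf1 and Irf8 the first of 2 annotated starts is shown.
Irf7 promoter: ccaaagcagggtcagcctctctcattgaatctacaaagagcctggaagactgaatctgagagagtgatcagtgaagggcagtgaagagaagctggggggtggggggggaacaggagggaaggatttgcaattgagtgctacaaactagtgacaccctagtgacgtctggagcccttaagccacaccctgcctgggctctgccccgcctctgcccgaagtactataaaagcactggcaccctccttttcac
Irf8 promoter: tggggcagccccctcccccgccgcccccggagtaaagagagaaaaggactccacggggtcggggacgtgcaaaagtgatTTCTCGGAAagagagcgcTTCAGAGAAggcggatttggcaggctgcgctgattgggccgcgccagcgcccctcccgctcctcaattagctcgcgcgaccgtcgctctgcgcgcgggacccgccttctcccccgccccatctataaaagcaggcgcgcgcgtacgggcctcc
Irf1 promoter: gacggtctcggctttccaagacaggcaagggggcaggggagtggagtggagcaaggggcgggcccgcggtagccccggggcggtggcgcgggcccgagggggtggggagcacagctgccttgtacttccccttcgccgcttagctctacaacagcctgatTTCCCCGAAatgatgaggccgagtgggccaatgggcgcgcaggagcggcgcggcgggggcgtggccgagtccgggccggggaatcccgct
Irf2 promoter: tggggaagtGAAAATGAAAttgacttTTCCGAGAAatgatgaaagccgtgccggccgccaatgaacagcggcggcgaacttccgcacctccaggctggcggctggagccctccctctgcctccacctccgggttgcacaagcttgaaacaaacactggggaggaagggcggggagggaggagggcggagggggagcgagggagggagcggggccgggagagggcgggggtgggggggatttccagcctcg

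Motifs were sought on both strands in windows of 250 bases before to 50 after each start. The ISRE core matched in the Irf2 window alone, at positions -241 to -232 relative to the start, and in 3.43% of all 32817 promoter windows of the same length. GAS matches lay at -90 to -82 in the first Irf1 window, at -224 to -216 in the Irf2 window, and at 2 places in the first Irf8 window, -171 to -163 and -153 to -145. Of all windows, 8.29% held a GAS match. The core letters of the hypoxia response element, ACGTG and GCGTG, which do not overlap the other motifs in these windows, were sought as well. ACGTG matched once, in the first Irf8 window, and is present in 19.6% of all windows. GCGTG matched in windows of Irf1, Irf3, Irf4 and Irf8 and is present in 32.4% of all windows. None of these 4 motifs matched in the windows of Irf5, Irf7 or Irf9, which says only that these letters are not in these windows.

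**Figure D1:**
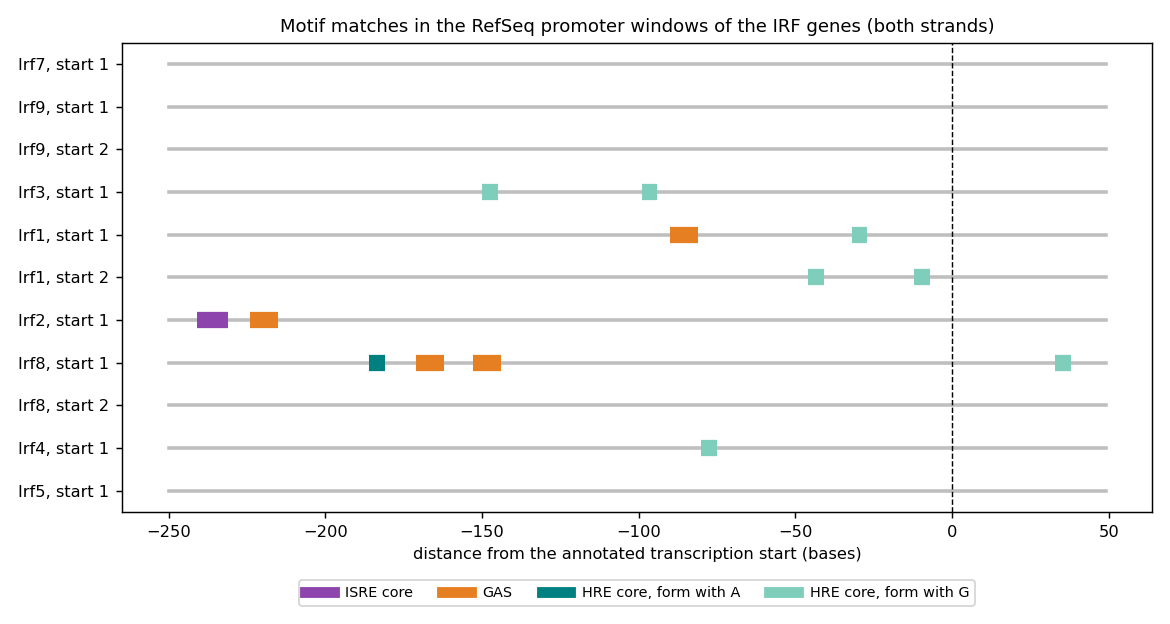
Positions of motif matches on either strand in the RefSeq promoter windows of the 8 genes. The x axis is the distance in bases from the annotated start, and each line is 1 window. The first Irf8 window holds 2 GAS matches and the Irf2 window holds the single ISRE core match, while the Irf7 and Irf9 windows hold none.

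Total estimated counts ran from 55104810 to 55794698 per library, so that 0.018 CPM, the count scaled by library total, corresponds to a single count. The members had between 436 and 33150 counts in each library. The replicate 1 libraries of both groups stood apart from the other 4 on the second principal component of log2 CPM (22% of the variance). Levels below are CPM scaled with the trimmed mean of M-values (TMM), except levels per transcript length, which are not TMM-scaled. Each group is given as mean ± SD of its 3 libraries, and each log2 fold change sets hypoxia over normoxia. A gene was called when its p from edgeR's quasi-likelihood test, adjusted by Benjamini-Hochberg over all genes tested, was under 0.05. Calls numbered 1745 for higher and 1516 for lower levels in hypoxia. Scaling by library size alone gave 2384 and 998.

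Of the 8 IRF genes, 5 were lower in hypoxia, 0 were higher and 3 were not called. Irf7, Irf9, Irf8, Irf4 and Irf5 fell, and Irf1, Irf2 and Irf3 did not pass the test. Among all tested genes 9.72% were called lower and 11.2% higher. The 3 members that fell at least 2-fold were Irf7, Irf9 and Irf8, and 1.91% of all tested genes were called lower by that much. The median log2 fold change of the 8 members was -0.66, beside -0.0052 for all tested genes. The same 5 members had no overlap between the groups, which held for 38.3% of all tested genes. In bulk libraries, fewer cells that carry an mRNA and less of it per cell cannot be told apart.

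**Figure D2:**
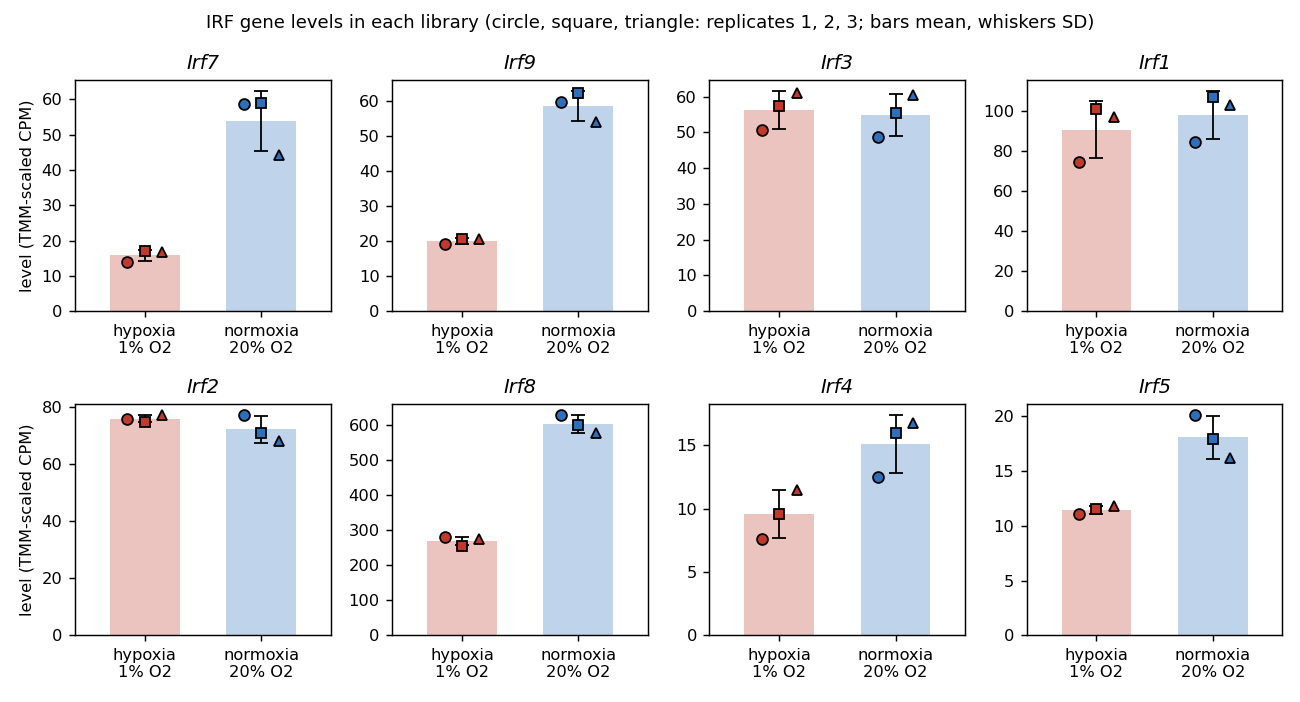
TMM-scaled CPM of each IRF gene (y axis, from 0) in the 3 hypoxia and 3 normoxia libraries. Bars are means, whiskers SD, and symbols the replicate numbers. All hypoxia libraries lie below all normoxia libraries for Irf7, Irf9, Irf8, Irf4 and Irf5, and the groups overlap for Irf1, Irf2 and Irf3.

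Among the factors activated by sensing, the interferon-inducible Irf7 fell and Irf3 did not change detectably. Irf7 (ENSMUSG00000025498), which amplifies type I interferon production, had 14.0, 16.9 and 16.6 CPM in hypoxia replicates 1 to 3, against 58.7, 59.0 and 44.1 CPM in normoxia replicates 1 to 3. The highest hypoxia library stood below the lowest normoxia library by a wide gap, and normoxia replicate 3 was the lowest of its group. The log2 fold change was -1.77 (SE 0.13, edgeR adjusted p = 2.5e-05), a 3.41-fold lower level, with 15.8 ± 1.59 CPM under hypoxia and 54.0 ± 8.51 CPM under normoxia. Only 0.564% of tested genes had a lower log2 fold change. Irf3 (ENSMUSG00000003184), which is present before infection and starts the interferon response, had 50.6, 57.4 and 61.0 CPM in hypoxia replicates 1 to 3, against 48.7, 55.3 and 60.3 CPM in normoxia replicates 1 to 3. Same-numbered libraries of the 2 groups lay closer to each other than to the other libraries of their own group. The log2 fold change was 0.04, with a 95% interval of -0.18 to 0.26 (edgeR adjusted p = 0.82).

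Within each library, the log2 ratio of Irf7 counts to Irf3 counts was therefore compared as a measure that does not depend on scaling between libraries. It was -1.85, -1.76 and -1.88 in the hypoxia libraries, against 0.27, 0.09 and -0.45 in the normoxia libraries. The groups did not overlap, and the difference was -1.80 (exact two-sided permutation test, p = 0.1, the smallest that 3 against 3 allows, and 0.3 adjusted over the 3 ratios tested). Within same-numbered pairs it was -2.12, -1.85 and -1.43, lower in hypoxia in 3 of 3 pairs (exact two-sided sign-flip permutation test, p = 0.25, the smallest that 3 pairs allow).

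Irf9, the DNA-binding subunit of ISGF3, fell, and so did its partner Stat2. Irf9 (ENSMUSG00000002325) had 19.2, 20.5 and 20.5 CPM in hypoxia replicates 1 to 3, against 59.7, 62.5 and 54.1 CPM in normoxia replicates 1 to 3. The hypoxia libraries lay close together, and none came near the normoxia range. Its log2 fold change was -1.55 (SE 0.08, edgeR adjusted p = 5.6e-06), a 2.93-fold lower level. Stat2, the partner through which IRF9 is held in ISGF3, had 33.1, 35.5 and 29.4 CPM in hypoxia, against 50.5, 55.6 and 43.3 CPM in normoxia (log2 fold change -0.61, SE 0.11, edgeR adjusted p = 0.0033). Both genes were lower in hypoxia without overlap between the groups, with a log2 fold change nearer to 0 for Stat2 than for Irf9. This difference between genes was not tested.

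Irf1 and Irf2, the activator and its antagonist, were not called. Irf1 (ENSMUSG00000018899) had 74.5, 101 and 96.8 CPM in hypoxia replicates 1 to 3, against 84.6, 107 and 103 CPM in normoxia replicates 1 to 3. Replicate 1 was the lowest library of both groups, and the groups overlapped. The log2 fold change was -0.11 with a 95% interval of -0.39 to 0.16 (edgeR adjusted p = 0.57), and with the replicate number as a block the adjusted p was 0.064. Irf2 (ENSMUSG00000031627) had 75.8, 74.7 and 77.0 CPM in hypoxia, against 77.1, 71.0 and 68.1 CPM in normoxia. The hypoxia libraries fell within the normoxia range, and the log2 fold change was 0.07 with a 95% interval of -0.08 to 0.23 (edgeR adjusted p = 0.51). The log2 ratio of Irf1 to Irf2 counts was 0.24 ± 0.24 in hypoxia and 0.44 ± 0.27 in normoxia, a difference of -0.20 (exact two-sided permutation test, p = 0.5, also 0.5 adjusted over the 3 ratios). Within same-numbered pairs the difference was -0.16, -0.16 and -0.27, lower in hypoxia in 3 of 3 pairs (exact two-sided sign-flip permutation test, p = 0.25, the smallest that 3 pairs allow).

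The lymphoid factors Irf8 and Irf4 both fell. Irf8 (ENSMUSG00000041515) was the most abundant member, with 279, 255 and 273 CPM in hypoxia replicates 1 to 3, against 627, 600 and 576 CPM in normoxia replicates 1 to 3. The spread within each group was small beside the gap between them. The log2 fold change was -1.16 (SE 0.08, edgeR adjusted p = 1.7e-05), a 2.23-fold lower level. Irf4 (ENSMUSG00000021356), which in lymphocytes follows the strength of antigen receptor signals, had 7.64, 9.61 and 11.5 CPM in hypoxia replicates 1 to 3, against 12.5, 16.0 and 16.8 CPM in normoxia replicates 1 to 3. The groups were separated only narrowly, with hypoxia replicate 3 just below normoxia replicate 1, and replicate 1 was the lowest library of both groups. The log2 fold change was -0.66 (SE 0.16, edgeR adjusted p = 0.016). The call was lost without hypoxia replicate 2 (edgeR adjusted p = 0.058), without normoxia replicate 2 (0.062) and without normoxia replicate 3 (0.0501), in a range of 1.9e-05 to 0.062 over 15 alternatives, and with the replicate block the adjusted p was 4.2e-05. The log2 ratio of Irf4 to Irf8 counts was -4.83 ± 0.32 in hypoxia and -5.32 ± 0.28 in normoxia (exact two-sided permutation test, p = 0.2, and 0.3 adjusted over the 3 ratios). Within pairs it was higher in hypoxia by 0.45, 0.50 and 0.54 (exact sign-flip permutation test, p = 0.25, again the smallest possible).

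Irf5 (ENSMUSG00000029771), a mediator of Toll-like receptor signals best known from myeloid cells, had 11.1, 11.5 and 11.8 CPM in hypoxia replicates 1 to 3, against 20.1, 17.9 and 16.2 CPM in normoxia replicates 1 to 3. The hypoxia libraries were nearly level and all lay below the normoxia libraries, which spread more widely. The log2 fold change was -0.65 (SE 0.10, edgeR adjusted p = 0.0014). Some members overlap neighbouring genes. In Irf5, 411 of 2905 exonic bases are shared with Tnpo3 on the opposite strand. Tnpo3 averaged 6332 counts in hypoxia and 6885 in normoxia, while Irf5 had 636 to 1056 per library. In Irf7, 45 of 3776 are shared with Phrf1 on the opposite strand (6284 and 6114 counts). In Irf9, 123 of 5386 are shared with Rnf31 on the same strand (2032 and 2521 counts). The part of neighbouring genes in the counts of the members was not tested. The libraries were strand-specific, but whether strand was used in counting is not given in the sources used here.

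Taking same-numbered libraries as pairs, the 5 members that fell were lower in hypoxia in 3 of 3 pairs. Of the members not called, Irf1 was also lower in 3 of 3 pairs (-0.18, -0.09 and -0.09), Irf3 was higher in 3 of 3 (0.06, 0.05 and 0.02), and Irf2 differed in sign between pairs. The log2 difference of Irf7 was -2.07, -1.80 and -1.41 in pairs 1 to 3 and that of Irf5 was -0.85, -0.64 and -0.45. That of Irf8 was -1.17, -1.23 and -1.08. Pair 3 had the smallest difference for each of the 5. Without both replicate 1 libraries the same 5 members remained called, with log2 fold changes of -1.62 for Irf7, -1.51 for Irf9, -1.16 for Irf8, -0.64 for Irf4 and -0.55 for Irf5 (edgeR adjusted p from 1.2e-05 to 0.0044).

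**Figure D3:**
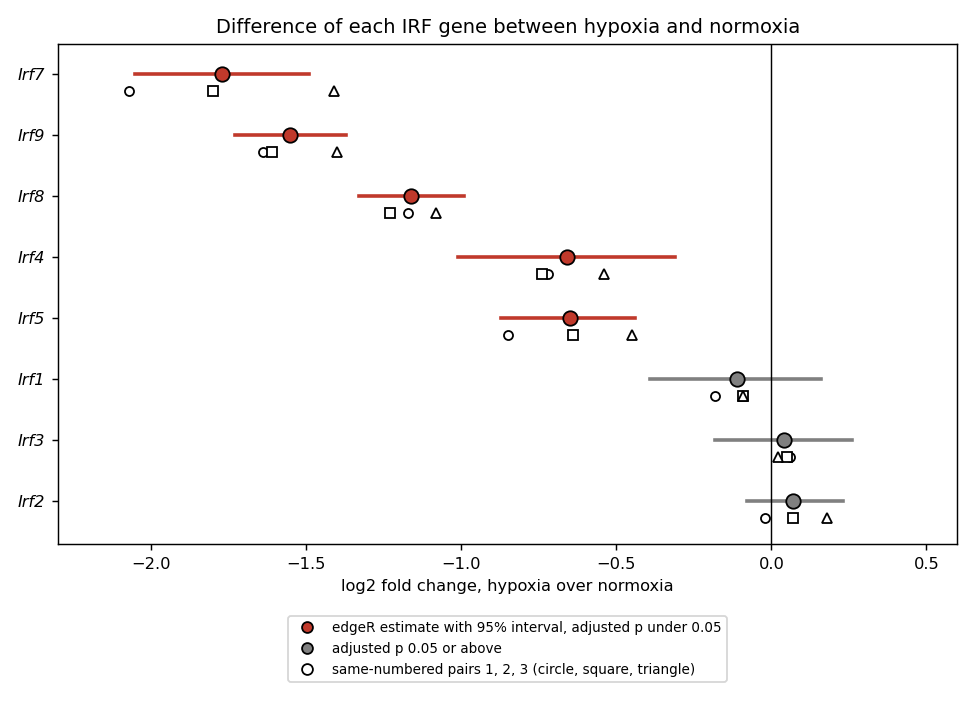
Log2 fold change of each IRF gene, hypoxia over normoxia (x axis), with its 95% interval from the edgeR fit, and below it the 3 same-numbered pairs. Filled red points passed the test. The intervals of Irf7, Irf9, Irf8, Irf4 and Irf5 lie below 0 and those of Irf1, Irf3 and Irf2 include 0.

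To order the members by level, counts were divided by the median length of each gene's annotated transcripts. They were then scaled to the same total per library (TPM scale), without TMM. By this level Irf8 came first in both groups, at 220 ± 8.08 in hypoxia and 459 ± 14.5 in normoxia. In hypoxia it was followed by Irf2 (140 ± 1.04), Irf1 (115 ± 18.3), Irf3 (76.3 ± 6.55), Irf7 (20.4 ± 2.12), Irf5 (11.5 ± 0.286), Irf9 (8.98 ± 0.387) and Irf4 (2.11 ± 0.398). In normoxia the order after Irf8 was Irf2 (125 ± 5.50), Irf1 (116 ± 17.2), Irf3 (69.4 ± 8.81), Irf7 (65.0 ± 10.2), Irf9 (24.6 ± 2.07), Irf5 (16.9 ± 1.53) and Irf4 (3.12 ± 0.538). Neighbours whose libraries overlapped in normoxia were Irf2 with Irf1 and Irf3 with Irf7. In hypoxia no neighbours overlapped by this length. Irf8 made up 37.0% ± 2.60 of the summed level of the 8 genes in hypoxia and 52.2% ± 1.33 in normoxia, and the sum itself was 594 ± 19.4 in hypoxia and 879 ± 34.4 in normoxia. With the longest annotated transcript as the length, Irf8 was again first and Irf4 last in both groups, and Irf1, Irf3 and Irf2 followed Irf8 in that order. The median transcript of Irf2 has 566 bases and the longest 3965. In hypoxia the next levels by the longest transcript were 11.8 for Irf9, 11.6 for Irf5 and 11.1 for Irf7, with overlapping libraries. In normoxia they were 34.7 for Irf7, 31.6 for Irf9 and 16.8 for Irf5, where Irf7 overlapped with both Irf2 and Irf9. The order of Irf7, Irf5 and Irf9 in hypoxia and the place of Irf2 therefore depend on the length used.

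**Figure D4:**
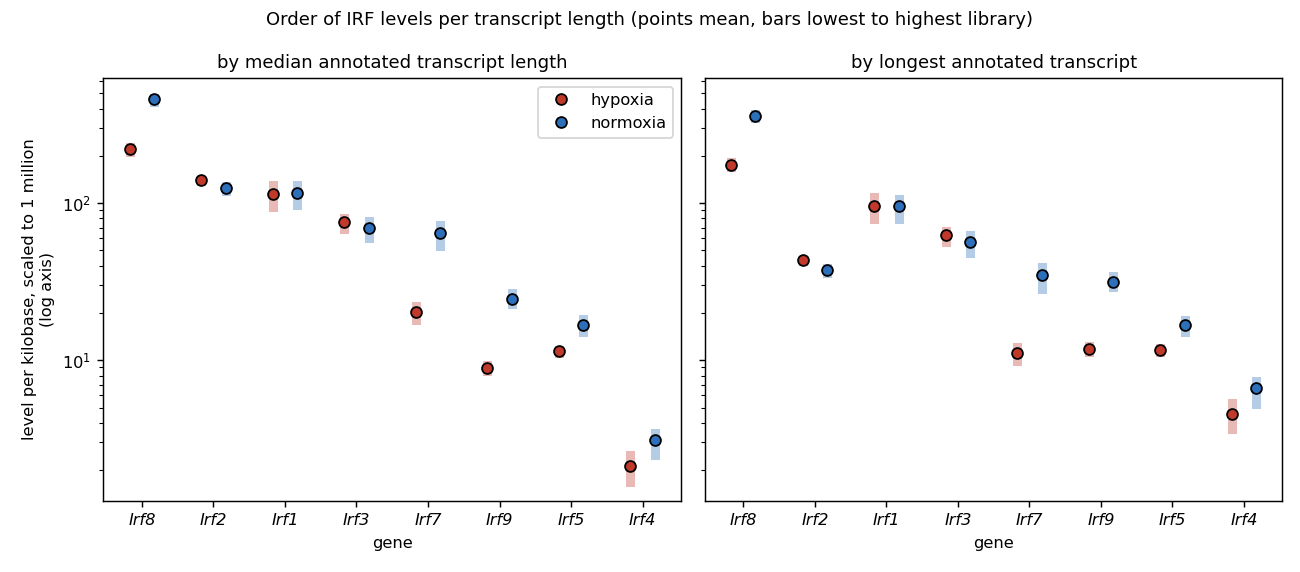
Level of each IRF gene per kilobase of transcript, on the TPM scale (y axis, log scale), by the median transcript length (left) and the longest transcript (right). Points are means of 3 libraries and bars run from the lowest to the highest library. Irf8 is highest and Irf4 lowest in hypoxia and normoxia in both panels, and the place of Irf2 and the hypoxia order of Irf7, Irf5 and Irf9 depend on the length used.

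Upstream of the IRFs, Ifng was the single interferon gene above the filter on low counts. Of 21 interferon genes, 14 were at 0 in all 6 libraries and 1 was tested. Ifng, the gene of interferon gamma, averaged 52.6 ± 7.67 CPM under hypoxia and 52.5 ± 1.24 CPM under normoxia (edgeR adjusted p = 0.99). Ifnb1, the gene of interferon beta, averaged 0 CPM under hypoxia and 0.0124 CPM under normoxia. The interferon genes that were at 0 or filtered out were not detectable as different at this depth.

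Of 22 tested sensors, adaptors and kinases that activate IRFs, 8 were lower (all genes 9.72%) and 1 higher (11.2%). Their median log2 fold change was -0.16. Tlr7, named after its values were seen, was called lower narrowly (edgeR adjusted p = 0.0474) and kept its call in 6 of 14 alternatives. With the replicate block 12 were lower and 1 higher, where 20.0% of all tested genes were called lower and 19.2% higher. Tlr3, a receptor of double-stranded RNA, was low in both groups, at 0.135 ± 0.0448 CPM under hypoxia and 0.485 ± 0.0902 CPM under normoxia (log2 fold change -1.83, SE 0.35, edgeR adjusted p = 0.0051). Dhx58, which encodes the RNA sensor LGP2, averaged 13.4 ± 0.568 CPM under hypoxia and 34.1 ± 4.54 CPM under normoxia (log2 fold change -1.34, SE 0.11, edgeR adjusted p = 3.7e-05). Tbkbp1, the gene of a binding protein of the kinase TBK1, was the gene of this list that rose, with 14.8 ± 0.737 CPM under hypoxia and 10.2 ± 0.701 CPM under normoxia (edgeR adjusted p = 0.0029). Tbk1 and Ikbke, the kinases of IRF3 and IRF7, were chosen after their values were seen and did not pass, with log2 fold changes of 0.04 and -0.17 (edgeR adjusted p = 0.77 and 0.18), and Ikbke was called lower with the replicate block (0.015).

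With the replicate block, 5 of 9 tested genes of interferon receptors and JAK-STAT signalling were lower (all genes 20.0%). In the main fit 3 were lower (all genes 9.72%) and 0 higher (11.2%), with a median log2 fold change of -0.18. Besides Stat2 these 3 were Ifngr1, the ligand-binding chain of the interferon gamma receptor, and Tyk2, a kinase of the type I interferon receptor, which was named after its values were seen. Tyk2 was called narrowly (log2 fold change -0.24, edgeR adjusted p = 0.0471, from 0.0021 to 0.21 over 15 alternatives) and kept its call in 6 of the 15. Ifngr1 averaged 180 ± 8.10 CPM under hypoxia and 268 ± 20.5 CPM under normoxia (log2 fold change -0.57, SE 0.08, edgeR adjusted p = 0.0012). Among 11 restraints and binding proteins of IRFs, 1 was lower and 0 higher, and the median was -0.01. That gene was Usp18, whose protein blocks the type I interferon receptor, with 2.46 ± 0.28 CPM under hypoxia and 16.4 ± 1.43 CPM under normoxia (log2 fold change -2.74, SE 0.12, edgeR adjusted p = 3.2e-06). Irf2bp2, a corepressor that binds IRF2, averaged 71.8 ± 4.45 CPM under hypoxia and 67.0 ± 4.52 CPM under normoxia (edgeR adjusted p = 0.42). Socs1, which restrains JAK kinases, averaged 21.1 ± 1.22 CPM under hypoxia and 21.2 ± 2.81 CPM under normoxia (edgeR adjusted p = 0.96).

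Of the DNA partners of IRF4 and IRF8, 6 were tested, 2 were lower (all genes 9.72%) and 0 higher (11.2%). Their median log2 fold change was -0.15. With the replicate block 4 were lower (all genes 20.0%). Batf3, an AP-1 factor that pairs with JUN proteins, was scarce, with 0.368, 0.277 and 0.374 CPM in hypoxia, against 0.800, 1.05 and 1.22 CPM in normoxia (log2 fold change -1.59, SE 0.26, edgeR adjusted p = 0.0024). Batf, its close relative, averaged 18.3 ± 0.187 CPM under hypoxia and 22.2 ± 0.9 CPM under normoxia (log2 fold change -0.28, edgeR adjusted p = 0.023, from 0.0029 to 0.11 over 15 alternatives). Batf was not called without hypoxia replicate 1, 2 or 3 or without normoxia replicate 2 (edgeR adjusted p = 0.053, 0.11, 0.063 and 0.053), nor with scaling by library size alone (0.078) or limma-trend (0.083). Spi1 and Spib, the ETS partners known from B cells and myeloid cells, were named after their values were seen. They averaged 0.0759 and 0.304 CPM in hypoxia, and 0.0311 and 0.203 CPM in normoxia.

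Zbtb32, a zinc finger gene reported to act downstream of IRF8 in mouse NK cells, had 42.7, 37.4 and 33.9 CPM in hypoxia, against 148, 128 and 104 CPM in normoxia. The groups were far apart (log2 fold change -1.74, SE 0.13, edgeR adjusted p = 3.0e-05). Prdm1, the gene of BLIMP-1 and a target of IRF4 in B and T cells, averaged 87.8 ± 8.48 CPM under hypoxia and 74.2 ± 9.48 CPM under normoxia. It was not called (log2 fold change 0.24, SE 0.10, edgeR adjusted p = 0.13) but was called higher with the replicate block (0.0017), without both replicate 1 libraries (0.027), without normoxia replicate 1 alone (0.019), and also with scaling by library size alone (0.04) and limma-trend (0.042).

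Downstream, genes known as targets of ISGF3, IRF3 and IRF7 were lower as a list. Of 27 ISRE-type targets, 24 were lower (all genes 9.72%), 0 were higher (11.2%) and 3 were not called. Their median log2 fold change was -1.71, beside -0.0052 for all tested genes. This list was chosen with earlier results of these libraries known, so its direction is not independent evidence. Their summed level ran from 334 to 369 CPM in the hypoxia libraries, against 698 to 851 CPM in the normoxia libraries. Ifi44, an interferon-induced gene, had the lowest log2 fold change of the list (-4.66, SE 0.32, edgeR adjusted p = 2.0e-05), followed by Oasl1, which in mice limits the translation of Irf7 mRNA, at -4.35 (SE 0.19, edgeR adjusted p = 3.2e-06). Oasl1 averaged 0.509 ± 0.0158 CPM under hypoxia and 10.4 ± 1.89 CPM under normoxia. Ifit3b, Oas2 and Isg20 were the 3 that did not pass (log2 fold change -0.22 for Ifit3b, -1.05 for Oas2 and 0.06 for Isg20), and Oas2 was called lower with the replicate block (edgeR adjusted p = 0.019).

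Of 23 genes known as targets of IRF1, 15 were lower (all genes 9.72%), 1 was higher (11.2%) and 7 were not called. Their median log2 fold change was -0.45, while Irf1 itself was not called. With single libraries left out 11 to 16 were lower, and 12 with scaling by library size alone or with limma-trend. With the replicate block 20 were lower (all genes 20.0%) and 1 was higher. Tap1, a subunit of the peptide transporter for MHC class I, averaged 164 ± 6.66 CPM under hypoxia and 279 ± 25.9 CPM under normoxia (log2 fold change -0.77, SE 0.09, edgeR adjusted p = 0.0003). Casp1, the inflammatory caspase gene, averaged 24.8 ± 2.96 CPM under hypoxia and 38.8 ± 0.119 CPM under normoxia (log2 fold change -0.65, SE 0.09, edgeR adjusted p = 0.0012). Ciita, the transactivator of MHC class II genes, was the gene that rose, with 5.73, 7.29 and 8.04 CPM in hypoxia, against 2.61, 2.91 and 2.67 CPM in normoxia (log2 fold change 1.36, SE 0.15, edgeR adjusted p = 0.00028). The target lists were chosen with earlier results of these libraries known, so their direction is not independent evidence. In all, the lists around the IRFs held both counts near the 9.72% of all genes called lower (1 of 11 restraints) and counts far from it (24 of 27 ISRE-type targets).

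**Figure D5:**
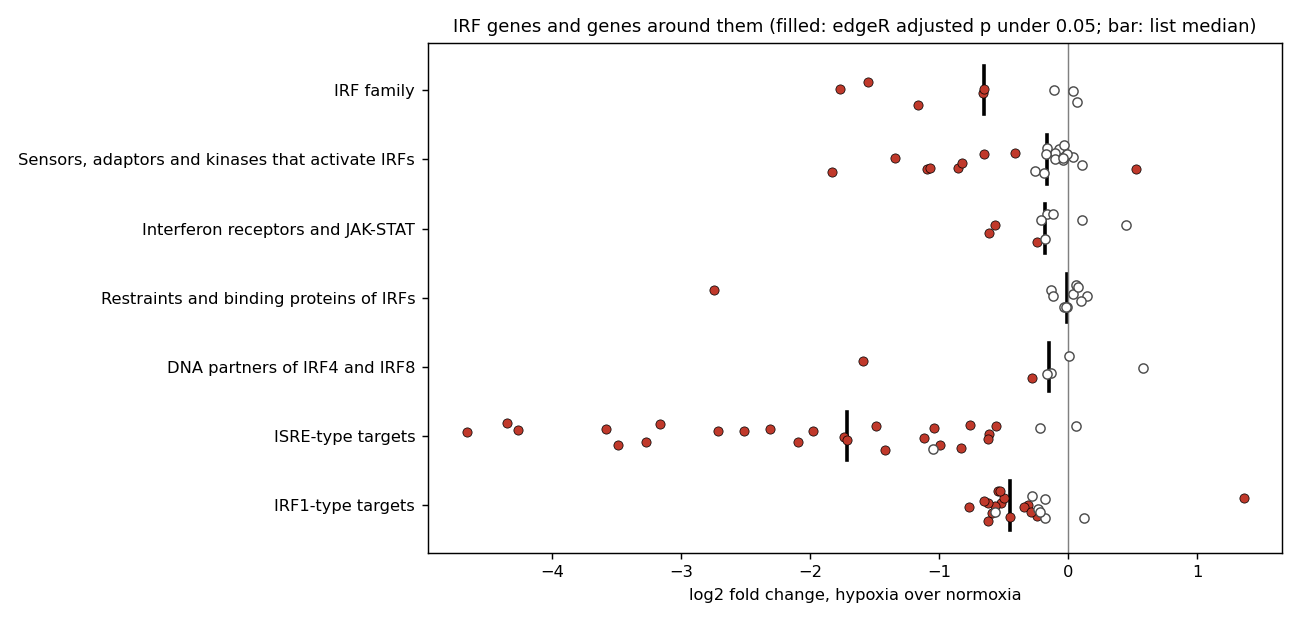
Log2 fold change, hypoxia over normoxia (x axis), of each tested IRF gene and of each tested gene of 6 lists around the family. Filled points had an edgeR adjusted p under 0.05 and black bars are list medians. The ISRE-type targets have the lowest median (-1.71), and Ciita and Tbkbp1 are the filled points right of 0.

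For each member that fell, the 2 genes with the nearest pattern over the 6 libraries were found among 8564 genes averaging at least 10 CPM, by the Euclidean distance between centred log2 CPM profiles. They were Ifi209 (distance 0.213) and Oas1a (0.282) for Irf7, and Xaf1 (0.192) and Gadd45b (0.199) for Irf9. For Irf8 they were Fads1 (0.0982) and Hif1a (0.148), for Irf4 Nfkbie (0.171) and Zfas1 (0.19), and for Irf5 Gpr174 (0.0882) and Ifi27 (0.133). Fads1, a fatty acid desaturase gene, averaged 37.5 ± 1.33 CPM under hypoxia and 84.2 ± 1.30 CPM under normoxia, a log2 fold change of -1.17. Hif1a, the gene of the oxygen-regulated factor HIF-1 alpha, averaged 59.8 ± 2.36 CPM under hypoxia and 135 ± 8.33 CPM under normoxia, also -1.17. The points of these profiles share libraries, depth and the difference between the groups.

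NK cell markers were abundant in every library, with 8 markers summing to 3490 to 3930 CPM in hypoxia and 4010 to 4610 CPM in normoxia, of which 1 (Eomes) was lower and 0 were higher. With the replicate block Eomes, Ncr1, Klrk1 and Prf1 were lower, and Tbx21 and Nkg7 were higher. Of all tested genes, 9.72% were called lower and 11.2% higher in the main fit, and 20.0% and 19.2% with the replicate block. Irf4, Irf5 and Irf8 are also known from B cells, dendritic cells and macrophages, so markers of these were read in the same libraries. The 6 B cell markers summed to 1.12 to 1.25 CPM in hypoxia and 0.347 to 0.706 CPM in normoxia, and the 1 that was tested, Cd79b, was higher. The 5 plasmacytoid dendritic cell markers summed to 82.8 to 86.7 CPM in hypoxia and 118 to 121 CPM in normoxia. Nearly all of it was Tcf4 and Bst2, which were both lower. Bst2 is also among the ISRE-type targets counted above, so it is not a separate result. Siglech averaged 0.0526 CPM under hypoxia and 0.0554 CPM under normoxia. The 6 conventional dendritic cell markers summed to 315 to 357 CPM in hypoxia and 172 to 196 CPM in normoxia, mostly Itgax, which NK cells also carry. Itgax and Xcr1 were higher, Zbtb46 was lower (log2 fold change -0.71, edgeR adjusted p = 0.002), and Clec9a and Cd209a were at 0. Xcr1 was scarce, at 0.58 CPM under hypoxia and 0.247 CPM under normoxia, and kept its call in 10 of 14 alternatives. The 6 macrophage and monocyte markers summed to 50.8 to 83.6 CPM in hypoxia and 15.5 to 29.2 CPM in normoxia, mostly Cd68. Cd68 and Lyz2 were higher, and Cd14 was lower (log2 fold change -1.39, edgeR adjusted p = 0.001). Lyz2 was scarce, at 0.31 CPM under hypoxia and 0 CPM under normoxia, and Adgre1 averaged 0.00584 CPM under hypoxia and 0.0124 CPM under normoxia. The 8 T cell markers summed to 534 to 611 CPM in hypoxia and 567 to 577 CPM in normoxia, mostly Trbc1 and Trbc2. Of these 8, 3 were higher (all genes 11.2%) and 0 lower (9.72%). The 3 were Cd3d (log2 fold change 1.07, edgeR adjusted p = 0.0001), Cd3g (0.87, 0.00047) and Cd4 (1.69, 0.011). Cd4 was scarce, at 0.7 CPM under hypoxia and 0.217 CPM under normoxia. With the replicate block Trbc1 and Trbc2 were lower. Plasma cell markers (171 to 187 and 179 to 207 CPM, mostly Xbp1, with Sdc1 higher), basophil and mast cell markers (76.3 to 89.8 and 19.3 to 27.3 CPM, mostly Mcpt8, which was higher as was Cpa3) and neutrophil markers (0.456 to 1.47 and 0.109 to 0.228 CPM, with S100a8 and S100a9 higher) complete the set, hypoxia given before normoxia. The part of other cells in the levels of the IRF genes was not tested.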

How the data were processed

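Per the labels' protocols, the mRNA libraries keep strand and follow the DNBSEQ protocol. The submitters' processing notes name GRCm39, kallisto 0.4.6, Trim Galore 0.6.4 and edgeR 3.17, with no role or order. Which annotation was used, and how transcripts were summed to genes, is not given here. For each Ensembl gene and library the authors deposited an estimated count, not normalized, and a value called CPM that is on the log2 scale. Kallisto divides reads between similar transcripts, so near-identical genes such as OAS and GBP relatives share counts.

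Symbols came from a GENCODE M21 table (52029 of 56953 IDs matched), transcript lengths from the same release, and promoters from RefSeq (GRCm38.p6). Counts were rounded, filtered with filterByExpr (minimum count 10, minimum total 15) and TMM-scaled. The comparison of hypoxia with normoxia used edgeR 4.0.16's quasi-likelihood test in R 4.3.3, with Benjamini-Hochberg adjustment over 15591 genes. The SE was taken as the size of the log2 fold change divided by the root of F, and 95% intervals use the t distribution of the fit. Ratios of members (0.5 added to each count) were compared by exact permutation tests in scipy 1.17.1. On simulated data for hypoxia against normoxia with 15591 genes, 73.8% of genes changed 1.5-fold, 95% at 2-fold and 100% at 4-fold were recovered, with 23 of 15351 unchanged genes called. The changed genes of the simulation were drawn only from genes above a floor on mean CPM, and no replicate effect was simulated. Its recovery rates therefore do not cover scarce genes such as Tlr3 and Batf3. Alternatives used DESeq2 1.42.0 and limma 3.58.1, among others.

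Same-numbered libraries deviated together from their groups' means, with correlations of 0.47, 0.33 and 0.30 across genes, each over the criterion of 0.1. Differently numbered libraries ran from -0.35 to 0.12, and hypoxia replicate 2 with normoxia replicate 3 (0.12) also passed it. Deviations from the mean of a small group depend on each other, so these values do not establish that the samples are paired. The main fit therefore has no pairing, and the replicate block is an alternative. Libraries of a group differed beyond counting noise (chi-square per gene of 11.0 or more on average), so none was treated as a copy of another. The members, lists and tests were chosen with earlier results of these data known. The genes named are the members, up to 2 called genes per direction and list with the largest change, the 2 nearest patterns of each called member, and Stat2, Ifng, Socs1, Irf2bp2, Prdm1 and Zbtb32. Other names, including list members given without such a reason, were chosen after their values were seen. A further member of the family and 1 gene of the receptor and JAK-STAT list are not reported here and enter no list count.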

Additional observations from a re-analysis of the deposited data

How the results depend on the processing

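Of 120 values of the 8 members under 15 alternatives, 117 kept their direction or stayed uncalled and their side of the threshold, and 3, all for Irf4, were no longer called when 1 library was left out. The count of members called lower ran from 4 to 5 with single libraries left out and was 5 otherwise, and 0 were higher throughout. Among the 28 other genes named by rule, 407 of 418 values kept their side, 6 lost and 5 gained a call, and 0 reversed. Genes named after their values were seen, such as Tyk2, Ikbke and Oas2, are outside this count. Tyk2 kept its call in 6 of 15 alternatives. Counts over all genes moved more. The replicate block gave 2988 higher and 3120 lower genes. With single libraries left out 1146 to 1980 were higher and 804 to 1636 lower, and the counts moved by over 1.5 times without hypoxia replicate 2 (1160 higher, 804 lower) and without normoxia replicate 2 (1146 higher, 942 lower). Lower genes numbered 998 with scaling by library size alone and 987 with limma-trend, and library size scaling put the median log2 fold change at 0.077 over all genes. With the replicate block 5 receptor and JAK-STAT genes were lower. Of the DNA partners, 4 were lower with the replicate block, 1 each with library size, limma-trend or a filter of 1 CPM in 3 libraries, and 1 to 2 with single libraries left out. The cause of these moves was not tested. Among the named IRF and pathway genes, the replicate block changed the calls of Prdm1, Ikbke and Oas2 and of no other. The differences in member ratios kept their sign throughout, at -0.35 to -0.06 for Irf1 to Irf2, -2.01 to -1.65 for Irf7 to Irf3 and 0.34 to 0.68 for Irf4 to Irf8 with single libraries left out. By level per length, the ranks of Irf1, Irf2 and Irf3 in both groups and of Irf7 and Irf9 in hypoxia depend on the transcript length chosen. Interferon genes other than Ifng were below the filter on low counts.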
